A study of Homo sapiens with 12 samples.

Results

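The genes described here make and police proteins in the endoplasmic reticulum (ER) of 22Rv1 prostate cancer cells. They are 36 genes chosen by symbol from a list of ER chaperones, ER-associated degradation (ERAD) components and sensors of the unfolded protein response (UPR), out of 18668 genes in the expression table. By role, 18 are chaperones and folding enzymes, 10 belong to ERAD, 5 are sensors or transcription factors, and 3 belong to the protein translocon or the ER membrane. All 36 were found in the table, and all 36 passed the filter on low counts, which left 17702 genes to test and 966 out. The rule selects by symbol, and the list was drawn up with earlier results of these data known.

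22Rv1 is an established, androgen-independent human prostate carcinoma line, grown in medium with serum and given as wild type in the labels, so every group is this 1 line. Cells received vehicle, a targeted degrader, an autophagy-activating ligand or enzalutamide, each for 24 h and each as 3 biologically independent libraries of polyadenylated RNA. Enzalutamide is a hormone-therapy drug for prostate cancer. Doses were not used here, because the labels give none.

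Proteins that enter the secretory pathway fold inside the ER with the help of chaperones, disulfide isomerases and a lectin cycle that reads their sugars. Proteins that fail to fold are marked, drawn back through the membrane, ubiquitinated and degraded by the proteasome, which is ERAD. When unfolded protein builds up, the membrane sensors IRE1 (gene ERN1), ATF6 and PERK (gene EIF2AK3) start the UPR, in which the transcription factors XBP1 and cleaved ATF6 raise the genes of folding and ERAD. Secretory cells such as prostate epithelium depend on this system.

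Between 55.5 and 77.2 M reads were counted per library, and the ranges of the groups overlapped. All 8 luminal prostate markers examined were listed, among them KLK3, KRT8 and HOXB13. Their summed level was 2030 to 2210 CPM (reads scaled to a common library size) with vehicle, 1810 to 1940 CPM with enzalutamide, 1890 to 2080 CPM with the ligand and 1530 to 1640 CPM with the degrader. None of the basal (3), leukocyte (2) or endothelial (2) markers was listed, and the table lists only genes with a read in every library. Stromal markers (3 of 4 listed) summed to 11.4 to 11.7 CPM with vehicle and 9.9 to 11.8 CPM with the degrader, and the neuroendocrine markers CHGA and SYP to 71.3 to 82.1 and 74.1 to 85.3 CPM. The luminal sum was lower than in every vehicle library with the degrader and with enzalutamide, and its part in the results was not tested. Counts were from bulk RNA, in which more cells in a given state and more RNA per cell cannot be told apart, and gene counts do not show XBP1 splicing, ATF6 cleavage or any protein.

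With the degrader, 24 of the 36 genes rose and none fell, with a median log2 fold change against vehicle of 0.26 and a range from -0.12 to 0.99. Over all genes tested, 16.4% were higher and 16.4% lower (32.7% in all), with a median of 0.01. All 5 sensors and transcription factors rose (median 0.61), as did 7 of 10 ERAD genes (median 0.35), all 3 translocon and membrane genes (median 0.31) and 9 of 18 folding genes (median 0.11). A gene was called at a Benjamini-Hochberg adjusted p under 0.05 in the quasi-likelihood test of edgeR. At an unadjusted p under 0.05, 25 genes were higher and 1 was lower, where 21.5% of all genes were higher and 20.6% lower, and DESeq2 and limma-voom each also gave 24 higher and none lower. Without any 1 library, 21 to 23 were higher, and with only the libraries numbered 2 and 3, an alternative chosen after seeing the data, 22 were. The 36 genes together took 0.93 ± 0.0072% of the counted reads in vehicle libraries, and this share was 1.04 ± 0.00793% after the degrader, 0.882 ± 0.0137% after enzalutamide and 0.884 ± 0.00925% after the ligand (mean ± SD, n = 3).

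**Figure D1:**
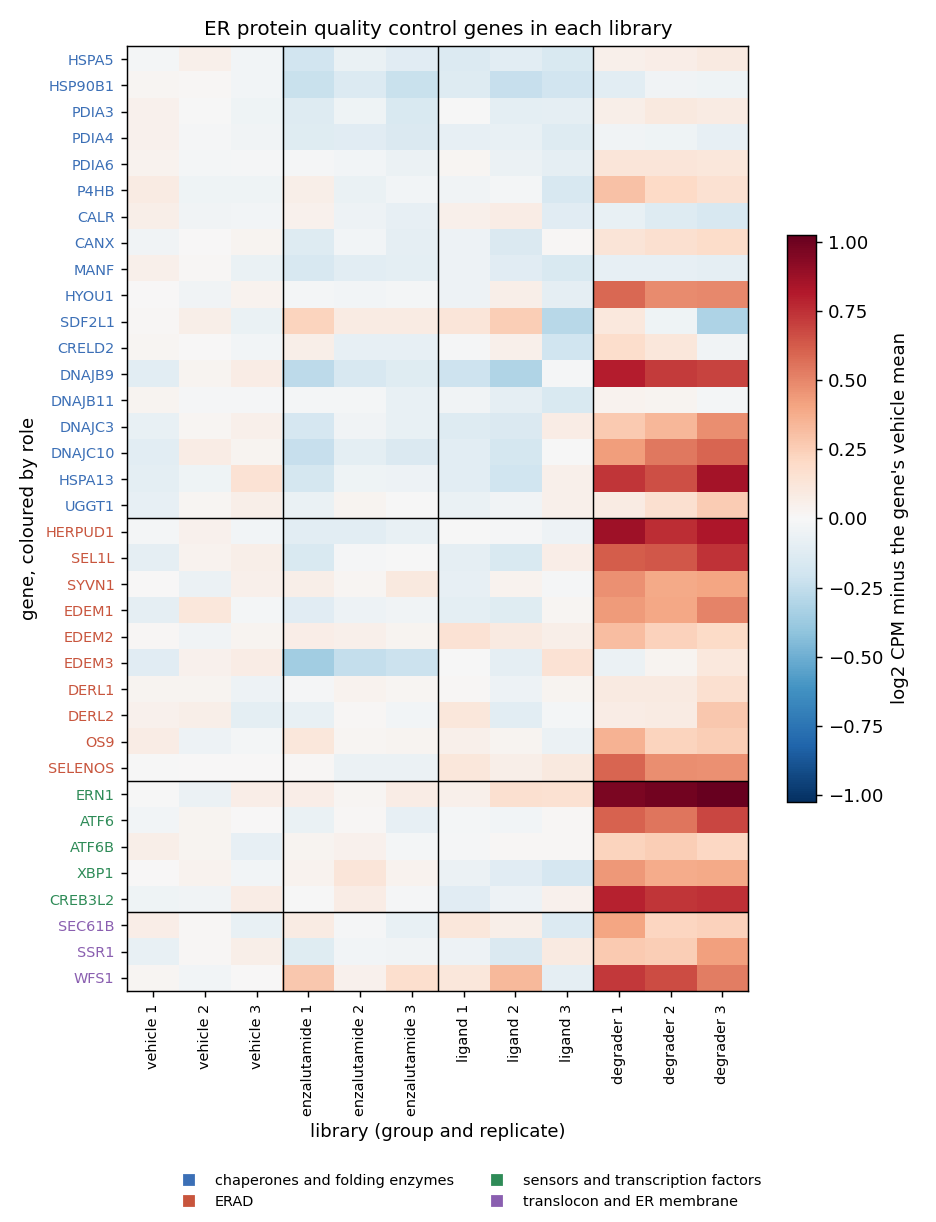
Each cell gives a gene's log2 CPM in 1 of the 12 libraries minus the mean of its 3 vehicle libraries, with genes in rows, coloured and ordered by role, and libraries in columns. The 3 degrader libraries carry the red cells, strongest for ERN1, HERPUD1, CREB3L2, HSPA13 and DNAJB9, while the enzalutamide and ligand libraries stay pale.

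Known regulatory elements in the promoters of these genes are shown first, because the sensors above act through them. ATF6 and XBP1 are known to bind the ER stress response element, ERSE (CCAAT, 9 bases of any kind, then CCACG), ERSE-II (ATTGG, 1 base of any kind, then CCACG) and the unfolded protein response element, UPRE, whose core is TGACGTGG. The factors ATF4 and CHOP are known to bind the C/EBP-ATF composite element, CARE, searched as TGATGNAA. All 4 were searched on both strands in RefSeq promoter windows of GRCh38.p14, from 250 bases before to 50 after the start, which covered 34 of the 36 genes (41 windows). PDIA3 and DERL1 had no window. ERSE was found in 7 of the 34 genes (20.6%, against 0.0916% of 27305 genes with a window), ERSE-II in 3 (8.82% against 0.0696%), the UPRE core in 2 (5.88% against 0.927%) and CARE in 2 (5.88% against 4.46%). Only exact matches to these letters were counted, so an element that differs by a base was not found. A match describes these letters and is not a measured binding site. The elements were chosen as known ones of such promoters, so the shares are a description and no test.

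The first set shows 3 promoters whose genes differed in response, HERPUD1 and HYOU1, which rose, and HSPA5, which did not pass the test. Each line holds the 250 bases before the start, 5′ to 3′ on the gene's strand, and capitals mark exact matches to the elements. In HERPUD1 the capitals are a CARE on the reverse strand and then an ERSE-II. In HYOU1 they are a UPRE core that overlaps an ERSE-II on the reverse strand, and then another ERSE-II. HSPA5 has 1 exact ERSE match. Near matches stay in lower case. The HERPUD1 line also holds a lower-case CCAAT followed, after 9 bases, by CCACA, which differs from CCACG by a base. In the HSPA5 line a lower-case CCAAT is followed, after 9 bases, by CCAAC, which differs by more than a base.
HERPUD1 (chr16:56931892-56932141, plus strand): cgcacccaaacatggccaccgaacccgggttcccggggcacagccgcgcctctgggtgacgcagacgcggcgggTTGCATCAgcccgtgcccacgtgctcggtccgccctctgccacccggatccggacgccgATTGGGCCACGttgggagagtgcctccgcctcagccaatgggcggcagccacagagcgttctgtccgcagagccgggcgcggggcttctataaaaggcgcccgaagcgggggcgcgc
HYOU1 (chr11:119057206-119057455, minus strand): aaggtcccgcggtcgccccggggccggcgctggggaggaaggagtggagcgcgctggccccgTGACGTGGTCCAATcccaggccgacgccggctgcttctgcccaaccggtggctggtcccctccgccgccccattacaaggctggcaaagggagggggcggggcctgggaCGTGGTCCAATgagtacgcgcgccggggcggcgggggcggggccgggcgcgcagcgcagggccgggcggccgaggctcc
HSPA5 (chr9:125241344-125241593, minus strand): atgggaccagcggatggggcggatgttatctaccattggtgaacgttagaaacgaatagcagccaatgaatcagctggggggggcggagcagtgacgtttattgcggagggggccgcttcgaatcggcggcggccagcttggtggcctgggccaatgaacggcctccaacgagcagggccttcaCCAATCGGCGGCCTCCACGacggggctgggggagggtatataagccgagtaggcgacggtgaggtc

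The second set shows single elements of other genes, in capitals with 10 bases on each side, read on the gene's strand, where an element can appear as its reverse complement, and the coordinates are those of the capitals. XBP1, CALR and HSP90B1 (2 sites) carry an ERSE, SDF2L1 an ERSE-II and DNAJC10 a UPRE core. ERSE also occurred in CANX, CRELD2 and PDIA6, and a CARE in CREB3L2.
XBP1 (chr22:28800603-28800621, minus strand): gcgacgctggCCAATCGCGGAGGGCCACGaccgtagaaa
CALR (chr19:12938384-12938402, plus strand): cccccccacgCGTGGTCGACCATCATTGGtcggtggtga
HSP90B1, far site (chr12:103930216-103930234, plus strand): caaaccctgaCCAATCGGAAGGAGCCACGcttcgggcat
HSP90B1, near site (chr12:103930321-103930339, plus strand): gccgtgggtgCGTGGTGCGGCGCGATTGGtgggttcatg
SDF2L1 (chr22:21642114-21642124, plus strand): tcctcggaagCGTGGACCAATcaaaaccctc
DNAJC10 (chr2:182716132-182716139, plus strand): gcgcacaccgCCACGTCAacctaaacct

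All 5 sensors and transcription factors rose with the degrader, and ERN1 rose most of all 36 genes. ERN1 encodes IRE1, the kinase and endoribonuclease that splices XBP1 mRNA. ERN1 stood at 15.1, 14.5 and 15.9 CPM in the vehicle libraries, 15.9, 15.4 and 16.0 CPM with enzalutamide, 15.8, 17.0 and 16.9 CPM with the ligand and 29.7, 30.1 and 30.9 CPM with the degrader. The degrader libraries lay above all 9 others, which overlapped one another, and the log2 fold change against vehicle was 0.99 (SE 0.06, edgeR adjusted p = 2.55e-09), or 1.99-fold. ATF6, the membrane sensor whose released fragment is a transcription factor, was at 60.5, 62.9 and 62.1 CPM with vehicle, 59.1, 62.4 and 58.2 CPM with enzalutamide, 60.9, 60.5 and 62.2 CPM with the ligand and 93.7, 90.5 and 99.3 CPM with the degrader. Here too the degrader libraries stood clear of the rest (log2 fold change 0.61, SE 0.05, edgeR adjusted p = 8.07e-08).

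ATF6B, the related ER membrane factor, moved less than ATF6. Its levels were 60.3, 59.0 and 54.6 CPM with vehicle, 59.0, 59.7 and 57.2 CPM with enzalutamide, 57.4, 58.4 and 58.5 CPM with the ligand and 67.6, 69.0 and 66.9 CPM with the degrader. The groups did not overlap between degrader and vehicle, with a log2 fold change of 0.23 (SE 0.05, edgeR adjusted p = 0.00155). The 95% confidence intervals of ATF6B (0.13 to 0.33) and ATF6 (0.51 to 0.71) did not overlap either, although the difference between the genes was not tested.

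XBP1, which encodes the transcription factor made after splicing by IRE1 and carries an ERSE in its own promoter, was at 135, 138 and 132 CPM with vehicle, 138, 147 and 138 CPM with enzalutamide, 129, 124 and 119.5 CPM with the ligand and 183, 175 and 177 CPM with the degrader. The ligand libraries were the lowest of the 4 groups and the degrader libraries the highest, and degrader against vehicle gave a log2 fold change of 0.40 (SE 0.04, edgeR adjusted p = 3.72e-06). CREB3L2, an ER-anchored transcription factor of the same class as ATF6 that acts on secretory pathway genes, was at 85.9, 86.1 and 93.2 CPM with vehicle, 88.0, 93.0 and 87.8 CPM with enzalutamide, 81.6, 85.1 and 91.2 CPM with the ligand and 152, 146 and 149 CPM with the degrader. Vehicle, enzalutamide and ligand libraries overlapped, and the degrader raised the gene 1.69-fold (log2 fold change 0.75, SE 0.05, edgeR adjusted p = 1.22e-08). Together the 5 genes took 0.0356 ± 0.00046% of counted reads with vehicle and 0.0524 ± 0.000401% with the degrader (mean ± SD, n = 3).

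**Figure D2:**
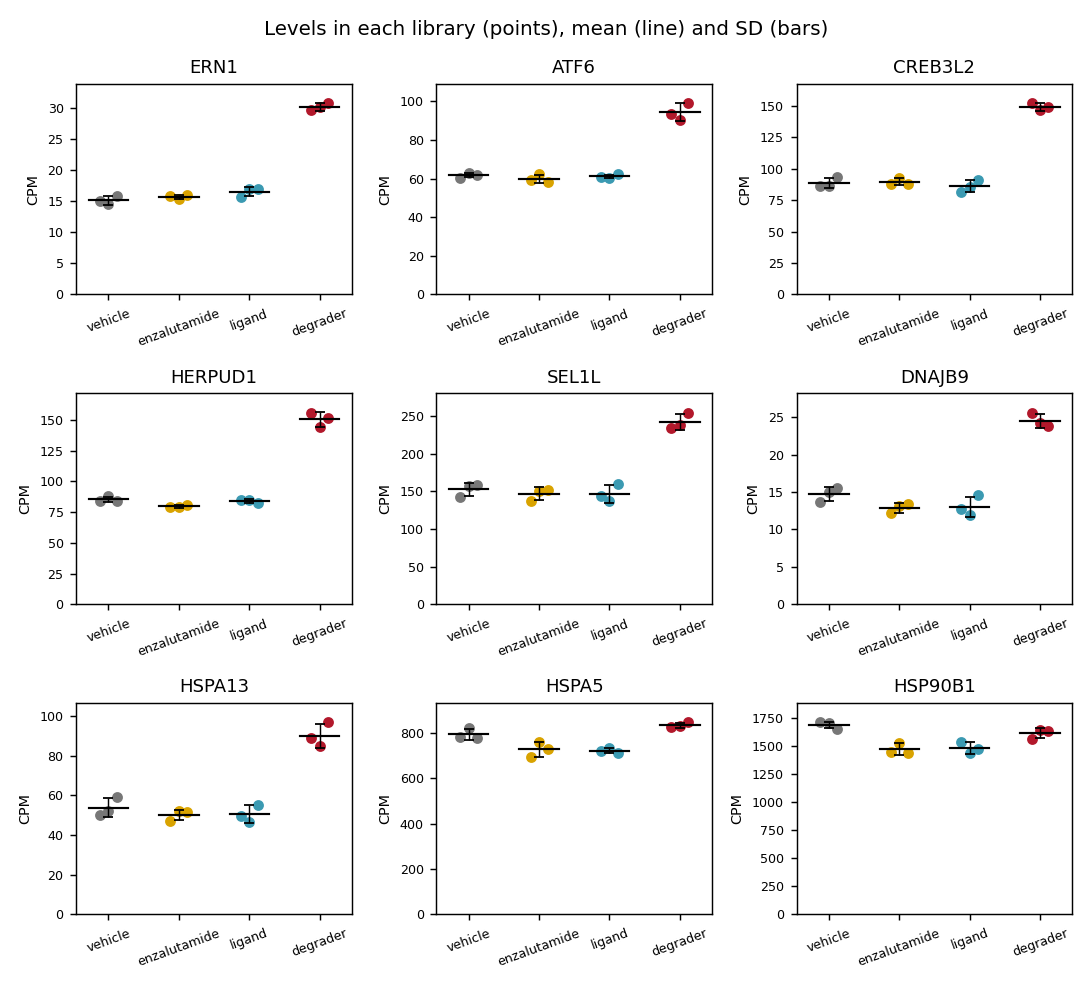
CPM of 9 genes in each of the 4 groups, with 1 point per library, a line at the mean and bars of 1 SD (n = 3), on axes that start at 0. ERN1, ATF6, CREB3L2, HERPUD1, SEL1L, DNAJB9 and HSPA13 stand higher in all 3 degrader libraries than in any other, whereas HSPA5 and HSP90B1 move by little.

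Among the ERAD genes, HERPUD1 and SEL1L rose most. HERPUD1, a UPR-induced membrane protein that works with the HRD1 ubiquitin ligase, was at 84.3, 87.9 and 83.8 CPM with vehicle, 79.1, 78.9 and 80.9 CPM with enzalutamide, 85.0, 84.7 and 82.5 CPM with the ligand and 156, 144 and 152 CPM with the degrader. SEL1L, the adaptor of the HRD1 complex, was at 143, 156 and 158 CPM with vehicle, 136, 151 and 152 CPM with enzalutamide, 143, 136 and 159.9 CPM with the ligand and 235, 237 and 254 CPM with the degrader. In both genes every degrader library exceeded every other library, and the log2 fold changes against vehicle were 0.82 for HERPUD1 (SE 0.04, edgeR adjusted p = 9.96e-10) and 0.67 for SEL1L (SE 0.06, 6.35e-07). HERPUD1 is also the gene whose promoter above holds both an ERSE-II and a CARE.

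SELENOS, a selenoprotein that links the derlin channel to the ATPase p97, was at 36.7, 37.0 and 37.0 CPM with vehicle, 37.2, 35.3 and 35.4 CPM with enzalutamide, 40, 38.5 and 39.4 CPM with the ligand and 55.6, 51.2 and 51.1 CPM with the degrader. Its degrader libraries were the highest (log2 fold change 0.51, SE 0.05, edgeR adjusted p = 9.16e-07). Smaller rises were seen for SYVN1, the ubiquitin ligase HRD1 (0.42), for EDEM1 (0.45) and EDEM2 (0.25), mannosidase-like proteins that mark glycoproteins for disposal, and for OS9, a lectin that reads the trimmed sugar (0.28). EDEM3, the third EDEM gene, was at 159 ± 11.3 CPM with vehicle and 162 ± 9.44 CPM with the degrader (0.02, 95% confidence interval -0.12 to 0.16, adjusted p = 0.821). The derlin genes DERL1 (0.11, adjusted p = 0.0649) and DERL2 (0.14, 0.127) did not pass the edgeR test. SYVN1 overlaps MRPL49 in the annotation, where up to 9197 reads were counted in a library, and DERL2 overlaps MIS12; whether counting used strand is not given in the sources used here, so these genes are uncertain. EDEM2 also lies in a listed read-through transcript with at most 132 reads.

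Of the 18 folding genes, 9 rose with the degrader, and the 4 that rose by a log2 fold change of 0.5 or more were all co-chaperones or atypical Hsp70 proteins. HSPA13, an atypical Hsp70 family member of microsomes, was at 50, 51.9 and 59.2 CPM with vehicle, 47.2, 51.9 and 51.6 CPM with enzalutamide, 49.8, 46.4 and 55.4 CPM with the ligand and 88.8, 84.8 and 96.9 CPM with the degrader. DNAJB9, a J-domain co-chaperone that is a known target of the IRE1 and XBP1 branch, was at 13.6, 15.0 and 15.5 CPM with vehicle, 12.2, 13.1 and 13.5 CPM with enzalutamide, 12.7, 11.9 and 14.5 CPM with the ligand and 25.6, 24.2 and 23.8 CPM with the degrader. For both genes the degrader libraries were separate from the other 9, with log2 fold changes against vehicle of 0.75 (SE 0.08, edgeR adjusted p = 1.3e-06) for HSPA13 and 0.74 (SE 0.08, 2e-06) for DNAJB9.

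HYOU1, a large Hsp70-related protein that acts as an exchange factor for BiP, was at 343, 333 and 351 CPM with vehicle, 337, 335 and 338 CPM with enzalutamide, 329, 356 and 319.9 CPM with the ligand and 513, 479.5 and 481 CPM with the degrader. DNAJC10, a J-domain disulfide reductase that works with BiP in ERAD, was at 233, 265 and 257 CPM with vehicle, 214, 234 and 227 CPM with enzalutamide, 233, 222 and 251 CPM with the ligand and 339, 364 and 379 CPM with the degrader. Every degrader library was again above every other library, and both genes had a log2 fold change of 0.52 (HYOU1 SE 0.05, edgeR adjusted p = 3.5e-07; DNAJC10 SE 0.06, 6.21e-06). They are the 2 genes whose promoters hold a UPRE core. The other 5 folding genes that rose were DNAJC3, a J-domain inhibitor of PERK (0.36), the disulfide isomerases P4HB (0.22) and PDIA6 (0.12), UGGT1, which tags unfolded glycoproteins for another round of folding (0.17), and the lectin chaperone CANX (0.16).

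The last 3 calls were the least firm of the 24. In edgeR fits without 1 library, UGGT1 missed the threshold when vehicle replicate 1 (adjusted p = 0.121) or 2 (0.0563) was left out, and was at 0.0655 without degrader replicate 2 and 0.138 without degrader replicate 3. PDIA6 had 0.0983 without vehicle replicate 2, 0.0834 without vehicle replicate 3, 0.0702 without degrader replicate 1, 0.0737 without degrader replicate 2 and 0.0623 without degrader replicate 3. CANX had 0.0546 without vehicle replicate 1 and 0.0531 without degrader replicate 3. PDIA6 overlaps ATP6V1C2 in the annotation.

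HSPA5, which encodes BiP, the main ER Hsp70 and a common marker of the UPR, did not pass the test with the degrader. Its levels were 784, 823 and 779 CPM with vehicle, 695, 759.8 and 732 CPM with enzalutamide, 723, 735 and 711 CPM with the ligand and 826, 831 and 848 CPM with the degrader. The degrader libraries lay just above the vehicle libraries, and the log2 fold change of 0.07 had a 95% confidence interval of -0.02 to 0.16 (edgeR adjusted p = 0.233). HSPA5, CALR and EDEM3 were picked for these values after they were seen. CALR, the soluble lectin chaperone calreticulin, was at 1407, 1318 and 1322 CPM with vehicle and 1279, 1231 and 1203 CPM with the degrader, all below vehicle (-0.12, interval -0.24 to -0.01, adjusted p = 0.0906).

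The other folding genes that did not pass were HSP90B1, the ER Hsp90 (-0.07, adjusted p = 0.272), PDIA3 (0.08, 0.182) and PDIA4 (-0.06, 0.312) of the disulfide isomerase family, MANF, a secreted ER stress protein (-0.09, 0.142), CRELD2 (0.09, 0.331), DNAJB11, a BiP co-chaperone (0.01, 0.858), and SDF2L1, its partner in the chaperone complex (-0.07, 0.687). The 9 folding genes that did not pass, HSPA5 and CALR included, had 95% confidence intervals between -0.33 and 0.23, the widest for SDF2L1, whose degrader libraries were at 42.4, 38.1 and 31.5 CPM. PDIA3 has 2 listed pseudogene copies, PDIA3P1 with up to 447 reads and PDIA3P2 with up to 318, and overlaps ELL3.

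WFS1, SSR1 and SEC61B make up the translocon and membrane group, and all 3 rose. WFS1, the ER membrane protein wolframin, was at 15.2, 14.7 and 15.0 CPM with vehicle, 18.2, 15.4 and 16.9 CPM with enzalutamide, 16.2, 18.9 and 14.0 CPM with the ligand and 24.7, 23.8 and 21.5 CPM with the degrader. Its degrader libraries were the highest, and its ligand libraries spread to either side of vehicle (log2 fold change with the degrader 0.64, SE 0.09, edgeR adjusted p = 5.28e-05). SSR1, a subunit of the translocon-associated complex, rose by 0.31 (adjusted p = 0.000912), and SEC61B, a subunit of the protein channel, by 0.29 (adjusted p = 0.00448). The ERAD and translocon groups took 0.0915 ± 0.00193% and 0.0215 ± 0.000599% of reads with vehicle, and 0.121 ± 0.00243% and 0.0274 ± 0.000924% with the degrader (mean ± SD, n = 3).

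**Figure D3:**
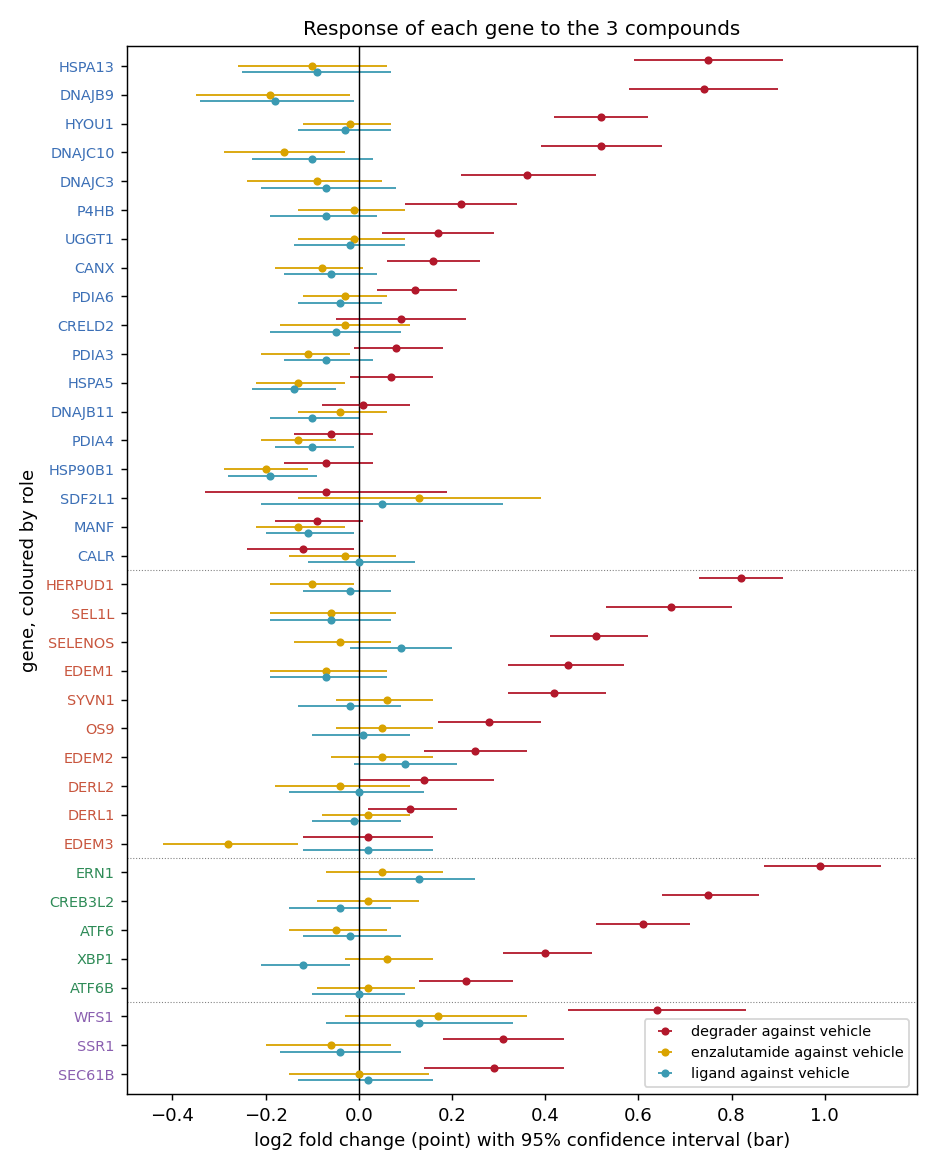
Log2 fold change against vehicle (points) with 95% confidence interval (bars) for the degrader, enzalutamide and the ligand, with genes in rows by role and by size of the degrader response. Degrader points run from -0.12 to 0.99 and end near 0 at the bottom of the folding group, while the intervals of the other compounds stay between -0.42 and 0.39.

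The more abundant genes of the set had the smaller log2 fold changes. Levels between genes were compared as deposited FPKM, which are per transcript length. With vehicle the most abundant members were CALR at 638 ± 22.0 FPKM and HSP90B1 at 548 ± 14.4 FPKM, which ranked 82 and 100 of all listed genes. These were followed by P4HB at 224 ± 11, HSPA5 at 183 ± 7.90 and CANX at 174 ± 4.50 FPKM, of which HSPA5 and CANX had overlapping ranges of mean ± SD. At the other end stood DNAJB9 at 5.52 ± 0.375, WFS1 at 3.72 ± 0.0336 and ERN1 at 1.74 ± 0.0605 FPKM (mean ± SD, n = 3). Of the 10 most abundant members 3 rose with the degrader (median log2 fold change 0.08), and of the other 26, 21 rose (median 0.41). Those 10 were all folding genes, so the split by level is in part a split by role. Level apart from role was not tested. Across the 36 genes, log2 vehicle FPKM and log2 fold change had a Pearson correlation of -0.69 and a Spearman correlation of -0.67. This describes the genes and is no test, because genes are not independent replicates and the vehicle libraries enter both values.

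**Figure D4:**
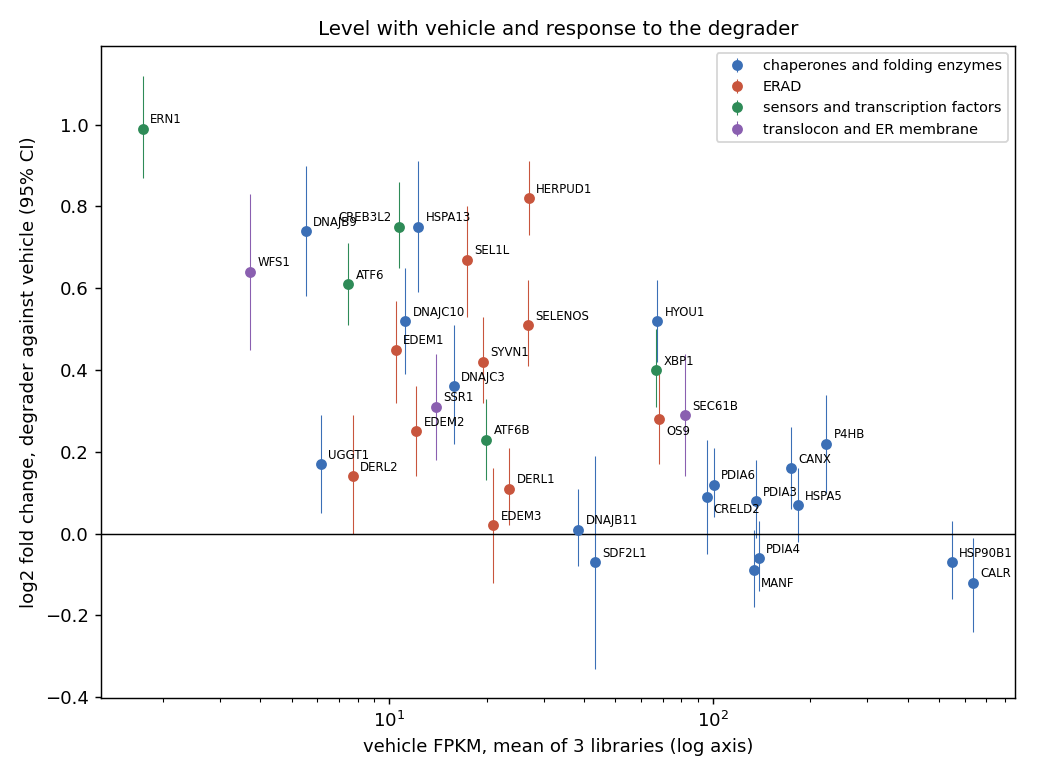
Each point is 1 of the 36 genes, with its mean vehicle FPKM on a log axis and its log2 fold change of degrader against vehicle with 95% confidence interval, coloured by role. ERN1 lies at the upper left at 1.74 FPKM and 0.99, and CALR and HSP90B1 lie at the lower right at 638 and 548 FPKM with values below 0.

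Genes with and without an exact match to an element were found among those that rose and among those that did not pass. Of the 7 genes with an ERSE (CALR, CANX, CRELD2, HSP90B1, HSPA5, PDIA6 and XBP1), 3 rose with the degrader (CANX, PDIA6 and XBP1; median log2 fold change 0.09). Of the 3 with an ERSE-II, HERPUD1 and HYOU1 rose and SDF2L1 did not pass. Of the 22 genes with no exact match to any of the 4 elements in a window, 17 rose, with a median of 0.30. Among them were ERN1, HSPA13, DNAJB9 and SEL1L. Among tested genes outside the set, 10 had an ERSE, of which 3 rose and none fell, and 10 an ERSE-II, of which 3 rose and 4 fell. Of 139 with a UPRE core 23.0% were higher and 15.1% lower, and of 348 with a CARE 25.9% and 15.5%. Of 11861 with no exact match to any of the 4, 17.0% were higher and 18.7% lower. These counts are descriptions. A window without an exact match can still hold an element that differs by a base, and the gene can have the element elsewhere.

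**Figure D5:**
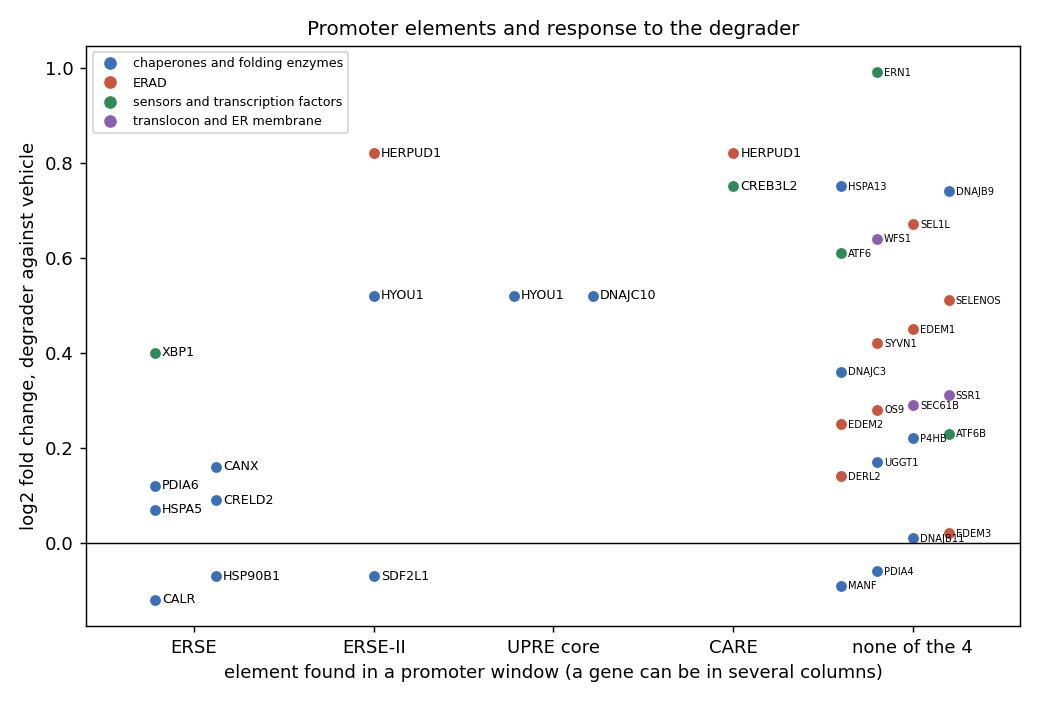
Log2 fold change of degrader against vehicle for the 34 genes with a promoter window, coloured by role. There is 1 column per element and a last column for genes with no exact match. The ERSE column sits between -0.12 and 0.40, below the highest genes of the column without matches, which reach 0.99.

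Other genes of the same pathways moved in both directions, with more called higher than lower. Over all genes tested, 16.4% were higher and 16.4% lower with the degrader. Of 34 further folding genes tested, 11 rose with the degrader (32.4%) and 4 fell (11.8%), with a median log2 fold change of 0.11. The calcium-binding protein RCN1 rose most clearly (0.57), from 63.5 ± 0.392 to 94.6 ± 0.945 CPM, with ERP44 (0.34), which retains unassembled cargo, and ERP29 (0.36). PRDX4, an ER peroxiredoxin (-0.23), TMX2 (-0.18) and FKBP10, a prolyl isomerase of collagen folding (-0.18), fell. FKBP10 missed the threshold when vehicle replicate 1 was left out (edgeR adjusted p = 0.0739), and was at 0.0594 without degrader replicate 2 and 0.0742 without degrader replicate 3. PPIB, SIL1, CNPY2 and QSOX1, among the 11 that rose, and TMX4, among the 4 that fell, also missed it in some edgeR fits without 1 library. Of 27 further ERAD genes, 8 rose (29.6%) and 2 fell (7.41%), with a median of 0.01. DERL3, the derlin known to be induced by the UPR, rose by 0.81 from 7.2 ± 0.398 to 12.7 ± 0.275 CPM, with the lectin ERLEC1 (0.44) and the ligase RNF185 (0.26). The 2 that fell were ERLIN1 (-0.15, adjusted p = 0.034) and the conjugating enzyme UBE2J2 (-0.14, 0.0477). ERLIN1 missed the threshold without vehicle replicate 1 (0.0601), 2 (0.0988) or 3 (0.0771) and without degrader replicate 1 (0.157), and UBE2J2 without vehicle replicate 1 (0.132) or 2 (0.148) and without degrader replicate 2 (0.0904) or 3 (0.176). Of the 8 ERAD genes that rose, HERPUD2, MAN1B1 and MAN1A2 missed it in some such fits.

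Of 25 genes of the translocon and of N-glycosylation, 11 rose (44%) and none fell with the degrader (median 0.13). At an unadjusted p under 0.05 by edgeR, 14 were higher and none lower, where 21.5% of all genes were higher and 20.6% lower. DESeq2 called 11 higher and limma-voom 12, with none lower by either. SEC61A1, the pore of the channel, rose by 0.42 from 305 ± 3.08 to 408 ± 21.9 CPM, with the signal peptidase subunit SEC11C (0.50) and SSR3 (0.35). SPCS2, SPCS3 and TRAM1, also among the 11 called by edgeR, missed the threshold in some edgeR fits without 1 library. Of 18 UPR regulators, 16 were tested, since CREB3L3 and ERN2 were not in the table. Of the 16, 6 rose (37.5%) and 4 fell (25%), with a median of 0.04. DDIT3, which encodes CHOP, was at 37.2, 37.9 and 35.7 CPM with vehicle and 128, 109.8 and 108 CPM with the degrader (1.64, edgeR adjusted p = 2.52e-11). ATF4, the factor made when translation slows, rose by 0.79 and PPP1R15A, which reverses that block, by 0.88. The remaining membrane sensor, EIF2AK3 (PERK), named after its values were seen, was at 22.3, 23.3 and 25.6 CPM with vehicle and 36.1, 36.6 and 36.7 CPM with the degrader (0.62, SE 0.07, edgeR adjusted p = 5.16e-06). NFYA (-0.19) and NFYB (-0.22), subunits of the factor that binds CCAAT, and TRAF2, an adaptor of IRE1 (-0.24), fell.

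Enzalutamide moved few genes of this set. Against vehicle 1 of the 36 genes fell and none rose, where 1.09% of all genes tested were lower and 0.35% higher (1.44% in all), and at an unadjusted p under 0.05 by edgeR 9 were lower and none higher, where 5.41% of all genes were lower and 4.47% higher. DESeq2 and limma-voom also called none higher, with 3 and 1 lower. The gene that fell was HSP90B1, the ER Hsp90, which stood at 1708, 1700.5 and 1655 CPM with vehicle, 1444, 1529.8 and 1437 CPM with enzalutamide, 1539, 1435 and 1474 CPM with the ligand and 1562, 1642 and 1635 CPM with the degrader. Enzalutamide libraries were all below vehicle (log2 fold change -0.20, SE 0.04, edgeR adjusted p = 0.0264). The call was lost without vehicle replicate 1 (adjusted p = 0.094), 2 (0.123) or 3 (0.0612) and without enzalutamide replicate 1 (0.109) or 3 (0.145). EDEM3 was at 146, 163 and 168 CPM with vehicle and 124, 134 and 136 CPM with enzalutamide, all lower, but did not pass (-0.28, edgeR adjusted p = 0.0507). It did pass with DESeq2 (adjusted p = 0.00902), in an edgeR fit of only the groups compared (0.018) and without vehicle replicate 1 (0.0178). Across all 36 genes the 95% confidence intervals lay between -0.42 and 0.39, and the median was -0.04. Of the 18 folding genes 17 had a log2 fold change below 0 (median -0.09), as had 48.8% of all genes tested, and these genes took 0.781 ± 0.00716% of reads in vehicle libraries and 0.736 ± 0.0122% in enzalutamide libraries (mean ± SD, n = 3). Of the related genes, edgeR called ERO1B, an oxidase of disulfide formation (-0.58, adjusted p = 0.00749), and TXNDC16 (-0.31, 0.035) lower with enzalutamide and none higher. ERO1B had 0.0549 without vehicle replicate 3 and 0.0557 without enzalutamide replicate 1, and TXNDC16 had 0.154 and 0.149 without vehicle replicates 2 and 3 and 0.163 and 0.191 without enzalutamide replicates 1 and 3.

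With the ligand no gene of the set passed the edgeR test against vehicle, where 0.203% of all genes tested were higher and 0.0339% lower (0.237% in all). At an unadjusted p under 0.05, 1 was higher and 6 lower, where 4.21% of all genes were higher and 3.11% lower, and DESeq2 called 1 gene lower and limma-voom none. The gene called by DESeq2 was HSP90B1, at -0.19 in edgeR (adjusted p = 0.12), and HSPA5 was at -0.14 (0.386). The 95% confidence intervals of the 36 genes lay between -0.34 and 0.33, with a median of -0.04. As with enzalutamide, most folding genes had a log2 fold change below 0 (16 of 18, median -0.07), as had 51.4% of all genes tested. The folding genes took 0.737 ± 0.00998% of reads in ligand libraries and 0.781 ± 0.00716% in vehicle libraries (mean ± SD, n = 3). None of the related genes passed in edgeR, DESeq2 or limma-voom, and at an unadjusted p under 0.05 by edgeR 1 of the folding, none of the ERAD, none of the translocon and 3 of the UPR regulator genes did.

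The degrader was next set against each other compound at the same time point. Against enzalutamide 28 of the 36 genes were higher and none lower (median 0.27), where 16.3% of all genes tested were higher and 16.1% lower (32.3% in all). Against the ligand 27 were higher and none lower (median 0.27), where 14.3% were higher and 14.2% lower (28.5% in all). At an unadjusted p under 0.05 by edgeR 30 were higher in each comparison, with none lower against enzalutamide and 1 lower against the ligand. Of all genes tested, 21.3% were higher and 20.7% lower by that measure against enzalutamide, and 19.9% and 18.9% against the ligand. DESeq2 and limma-voom called no gene of the set lower in either. Both comparisons use the same degrader libraries. HERPUD1 was higher by 0.92 against enzalutamide and by 0.84 against the ligand, and ERN1 by 0.94 and 0.87. Genes that did not pass against vehicle were higher here, HSPA5 by 0.20 (adjusted p = 0.00231) and 0.21 (0.00182) and PDIA3 by 0.19 (0.00354) and 0.15 (0.0206).

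HSP90B1 was higher with the degrader by 0.13 than with enzalutamide (edgeR adjusted p = 0.0268) and by 0.12 than with the ligand (0.0465). Its call against enzalutamide was lost without enzalutamide replicate 1 (0.0795) or 3 (0.0884) and without degrader replicate 2 (0.0868) or 3 (0.0822), and its call against the ligand without ligand replicate 2 (0.144) or 3 (0.088) and without degrader replicate 2 (0.155) or 3 (0.146). The latter was also lost with DESeq2 size factors (0.0618), with no filter (0.0609) and in a fit of only the groups compared (0.12). PDIA3 against the ligand was lost without ligand replicate 2 (0.067) or 3 (0.0525) and without degrader replicate 2 (0.0731) or 3 (0.0615), and in a fit of only the groups compared (0.0548). XBP1 was higher by 0.34 than with enzalutamide and by 0.52 than with the ligand. EDEM3 was higher than with enzalutamide by 0.30 (0.00246) but differed from the ligand by 0.01 (interval -0.13 to 0.15).

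Ligand and enzalutamide differed in 2 genes of the set. EDEM3 was higher with the ligand, at 158, 149 and 176 CPM against 124, 134 and 136 CPM (0.29, edgeR adjusted p = 0.0272), where 1.37% of all genes tested were higher (2.04% in all changed). XBP1 was lower with the ligand, at 129, 124 and 119.5 CPM against 138, 147 and 138 CPM (-0.18, adjusted p = 0.0483), where 0.667% were lower. For EDEM3 the adjusted p was 0.14, 0.0783 and 0.0625 without enzalutamide replicate 1, 2 and 3, and 0.0787 and 0.105 without ligand replicate 1 and 3. For XBP1 it was 0.0947, 0.273 and 0.125 without enzalutamide replicate 1, 2 and 3, and 0.0998 and 0.185 without ligand replicate 2 and 3. The XBP1 call was also lost with limma-voom (adjusted p = 0.0533), with no filter (0.0535) and in an edgeR fit of only the groups compared (0.217). Neither call held in an edgeR fit of only the libraries numbered 2 and 3 (0.105 and 0.114).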

How the data were processed

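Libraries were made with a stranded mRNA kit, per the labels' protocols. Reads were handled with HISAT2, StringTie and GRCh37, per the submitters' processing notes, with versions not given in the sources used here. The authors deposited 1 table of whole-number read counts per gene and library, and every listed gene has a read in each library. FPKM values, which the authors scaled by transcript length and library size per the file headers, were used here to compare levels between genes. Deposited TPM values, log2 normalized values, scores (signed fold changes and test statistics) and p-values of the authors were not used.

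Genes were filtered with filterByExpr of edgeR 4.0.16 (minimum count 10, minimum total 15; R 4.3.3), and counts were scaled by TMM. A quasi-likelihood model with group as its term was fitted to all 12 libraries (8 residual degrees of freedom), and 6 comparisons were tested over all genes. The threshold was 0.05 on the Benjamini-Hochberg adjusted p, whatever the size of the change. Fold changes are log2 with SE. CPM use TMM-scaled library sizes and are given per library or as mean ± SD over 3 libraries. Intervals are at 95% and cover the fitted spread between libraries, as do the p-values; replicates differed by a chi-square of 5.56 to 22.8 for each degree of freedom, above counting error. The model was also run on counts simulated from its own fitted spread, which does not test whether that spread suits these data. Alternatives used DESeq2 1.42.0 with its size factors, limma-voom (3.58.1), no filter, a replicate block, a fit of only the groups compared and fits without 1 library.

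The 36 genes, their roles, the related lists and the motifs were chosen with earlier results of these data known. Values in every library were to be given for genes called in degrader against vehicle with a log2 fold change of at least 0.5 in size, for genes called in enzalutamide or ligand against vehicle, and for the sensors; of each related list, up to 3 called genes with the smallest p in each direction were named. Promoters were matched by symbol to RefSeq on GRCh38.p14, while the counts rest on GRCh37, and no coordinates were carried between them. Protein sequences were not analysed here.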

Additional observations from a re-analysis of the deposited data

How the results depend on the processing

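Of the 24 genes called higher in degrader against vehicle, 21 stayed called under all 13 alternatives, and no gene called in any of the 6 comparisons changed direction. The exceptions were PDIA6, CANX and UGGT1. DESeq2 size factors or no filter moved the median log2 fold change of all genes in degrader against vehicle by no more than 0.01.

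Replicate numbers are shared across groups but name only triplicates. Deviations from group means correlated at -0.03 to 0.21 between same-numbered libraries and -0.17 to 0.07 between others, and no comparison had all 3 pairs above 0.1. Own numbers correlated best for 4 of 6 libraries in degrader against vehicle, ligand against vehicle and ligand against enzalutamide. They did so for 5 of 6 in degrader against enzalutamide and degrader against ligand, and 6 of 6 in enzalutamide against vehicle. With the replicate block in edgeR, degrader against vehicle had 25 genes of the set higher and 1 lower (CALR, -0.12, adjusted p = 0.0082). In all, 7265 genes were called, against 5795 without the block. The block also gave 5 lower in enzalutamide against vehicle (EDEM3 among them, adjusted p = 0.000494; 553 of all genes called against 255), 1 in ligand against vehicle (191 against 42), 2 in degrader against enzalutamide and 1 in degrader against ligand, and 613 genes in ligand against enzalutamide against 361.

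DESeq2 called 3 genes of the set lower with enzalutamide (403 of all genes) and 1 with the ligand (121 of all genes). A fit of only the groups compared called 1 lower with the degrader (CALR), 2 with enzalutamide, 25 of all genes with the ligand, and 0 lower in ligand against enzalutamide, as did limma-voom and the fit with no filter. With only the libraries numbered 2 and 3, 0 were lower with enzalutamide (136 of all genes), 23 of all genes were called with the ligand, and ligand against enzalutamide had 0 higher and 0 lower (204 of all genes). The cause was not tested, except that this last fit holds fewer libraries.

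Leaving out 1 library in turn gave these ranges. Degrader against vehicle kept 21 to 23 genes of the set higher, and 4580 to 5217 of all genes. Enzalutamide against vehicle had 0 to 1 lower and 173 to 218 of all genes, and ligand against vehicle 0 and 21 to 77. Degrader against enzalutamide had 26 to 29 higher and 4531 to 5210 of all genes, and degrader against ligand 23 to 26 higher, 0 to 2 lower and 3781 to 5408. Ligand against enzalutamide had 0 to 1 higher, 0 to 1 lower and 229 to 337 of all genes.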
